A study of Mus musculus with 89 samples.

Results

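The globin and erythroid genes are a set of 9 mouse genes, chosen by name, that red blood cells and their precursors use: the globins Hbb-bt, Hbb-y, Hbb-bh1 and Hba-x, and the erythroid genes Alas2, Slc4a1, Ahsp, Rhag and Klf1. Of these, 7 had a probe set with a single gene symbol, out of 19572 such probe sets among 22206 on the array. Hbb-bt, the adult beta-like globin gene, and Ahsp, the chaperone of alpha globin, were not analysed here. The 7 genes were followed across mouse forebrains taken on embryonic day 18.5 and hybridised to Clariom S arrays, 1 embryo per array. Values are log2 signals after RMA, a background correction and normalization that yields 1 value per probe set.

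The 89 embryos fall into 4 groups, all on a mixed B6 and C3H background and none of them treated. Ts65Dn embryos (n = 23) carry an extra chromosome with a part of mouse chromosome 16 rich in orthologues of human chromosome 21 genes and a part of mouse chromosome 17, and EupTs65Dn embryos (n = 18) are the euploid embryos of the same litters. Ts66Yah embryos (n = 24) carry the chromosome 16 part without the chromosome 17 genes, and EupTs66Yah embryos (n = 24) are their euploid littermates. Each colony holds 6 litters, named here by the dam (TS or WT and a number), and only Ts65Dn females transmit the extra chromosome, since Ts65Dn males are infertile. None of the 7 genes is on mouse chromosome 16. Rhag is on chromosome 17, with the 250 bases before its start at 40810899 to 40811148 (GRCm38.p6). The bounds of the extra part of that chromosome were not examined here.

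Haemoglobin joins alpha-like and beta-like globin chains around haem. In the mouse embryo, primitive red cells made in the yolk sac use the embryonic chains encoded by Hba-x (zeta), Hbb-y (epsilon-y) and Hbb-bh1 (beta-h1). Red cells made later in the fetal liver use adult chains, and Klf1 is among the transcription factors behind that switch. Forebrain tissue holds these transcripts mainly through the blood in its vessels. In tissue samples, fewer red cells and less RNA per red cell cannot be told apart.

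The mean log2 signal of an array lay between 5.26 and 5.33 in the Ts65Dn colony, and between 6.35 and 6.41 in the Ts66Yah colony without EupTs66Yah replicate 16, so levels were compared within a colony only. Replicate 16 of EupTs66Yah stood apart, with a standard deviation of 1.13 over its probe sets against 2.23 to 2.4 in the others of its colony, and is left out of the values below unless stated, which leaves 23 euploid embryos there. Of 32 triplicated chromosome 16 genes, 30 rose in Ts65Dn and 31 in Ts66Yah. In 4 arrays these genes read like the opposite genotype: Ts66Yah replicates 13 and 24, EupTs66Yah replicate 24 and Ts65Dn replicate 18. In 16 arrays, EupTs66Yah replicates 13 and 14 among them, the Y-linked genes did not match the recorded sex. Those arrays were kept under their labels. The mean of 6 liver genes was highest in 2 WT18 embryos, Ts66Yah replicate 19 (7.34; Alb 9.63) and EupTs66Yah replicate 13 (6.02; Alb 7.4), where the other 45 embryos had Alb at 2.87 to 6.18. All of these genes but Apoa2 were above the other 45 embryos in the former, and Alb alone in the latter. Of 8 forebrain markers measured, 8 lay at or above the median signal in the Ts65Dn colony and 7 in the Ts66Yah colony, where Emx1 lay above 45.5% of probe sets.

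Upstream sequences show what the genes share outside these measurements. RefSeq promoter windows (GRCm38.p6) were available for 6 of the 9 genes. The 250 bases before the start of each were searched on both strands for GATAA, the core bound by GATA factors (TTATC on the other strand), and for CACCC, the core bound by Klf1 and its relatives (GGGTG on the other strand). All 6 windows, those of Hbb-bt, Hbb-y, Hba-x, Alas2, Rhag and Klf1, held both motifs. Of 32851 mouse promoter windows 22.6% held GATAA, 52.0% held CACCC and 10.1% held both. A match is a description of the letters, not a binding site. An embryonic beta-like and an embryonic alpha-like globin, a haem enzyme and a transcription factor are shown because the results below are ordered by these roles, with both motifs in capitals.
Hbb-y, chr7:103853208-103853457, minus strand: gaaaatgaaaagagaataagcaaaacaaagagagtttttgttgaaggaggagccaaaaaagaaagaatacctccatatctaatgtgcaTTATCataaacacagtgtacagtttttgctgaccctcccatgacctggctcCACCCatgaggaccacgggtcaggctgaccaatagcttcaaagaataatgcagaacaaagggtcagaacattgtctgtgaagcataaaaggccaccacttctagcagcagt
Hba-x, chr11:32276350-32276599, plus strand: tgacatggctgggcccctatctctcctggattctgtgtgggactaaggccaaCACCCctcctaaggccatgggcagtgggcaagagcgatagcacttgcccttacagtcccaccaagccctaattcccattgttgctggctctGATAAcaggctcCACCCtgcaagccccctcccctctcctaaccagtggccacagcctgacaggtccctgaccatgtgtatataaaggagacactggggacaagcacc
Alas2, chrX:150547167-150547416, plus strand: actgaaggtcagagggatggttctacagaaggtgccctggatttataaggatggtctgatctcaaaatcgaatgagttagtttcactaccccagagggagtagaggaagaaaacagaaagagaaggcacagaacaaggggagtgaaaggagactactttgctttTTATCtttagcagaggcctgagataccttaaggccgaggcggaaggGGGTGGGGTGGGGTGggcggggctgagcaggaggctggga
Klf1, chr8:84901732-84901981, plus strand: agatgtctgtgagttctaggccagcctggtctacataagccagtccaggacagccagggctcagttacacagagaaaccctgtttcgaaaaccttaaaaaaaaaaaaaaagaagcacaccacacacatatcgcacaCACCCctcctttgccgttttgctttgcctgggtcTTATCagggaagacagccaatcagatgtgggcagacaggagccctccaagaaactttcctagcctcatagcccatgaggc

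The signals of the 7 genes were low to middling on these arrays. Alas2, the first enzyme of haem synthesis in red cell precursors, had a mean log2 signal of 5.62 in the Ts65Dn colony and 6.5 in the Ts66Yah colony, above 53.6% and 51.9% of probe sets. Slc4a1, the anion exchanger of the red cell membrane, lay above 49.4% and 47.4%. Klf1 lay above 33.5% and 34.5%, and Hba-x above 26% and 30.1%. Hbb-y (8.06% and 11.6%), Hbb-bh1 (5.99% and 5.51%) and Rhag (6.78% and 8.39%), a membrane glycoprotein of the Rh complex, lay near the bottom. These shares also depend on how well each probe set binds, so they do not order the genes by abundance.

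As a gauge of low signal, 1091 probe sets of olfactory receptor genes were used, a family active mainly in the nose. Alas2 and Slc4a1 lay above 100% of them in the Ts65Dn colony and above 99.9% in the Ts66Yah colony. Klf1 lay above 97.8% and 98.6%, and Hba-x above 93.3% and 96.7%. Hbb-y, Hbb-bh1 and Rhag lay inside the range of that family, above 48.4%, 38.9% and 42.9% of it in the Ts65Dn colony and above 63.3%, 38.5% and 52% in the Ts66Yah colony. That family was chosen after the values were seen.

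The first comparison set Ts65Dn embryos against EupTs65Dn embryos. None of the 7 genes passed the test. The groups overlapped for each of them, but they also did for Bach1, a gene described below that passed. The share of all probe sets with such overlap was not counted, so overlap does not mark these genes. In limma, with p-values adjusted by Benjamini-Hochberg across every probe set and a threshold of 10%, 0 of 7 passed, with adjusted p from 0.919 to 0.998. The background in the same fit was 0.491% of probe sets. At an unadjusted p under 0.05 the count was also 0 of 7, against 5.79% of all probe sets, and the unpaired t-test of the series called 0.

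Among the embryonic globins, Hba-x had log2 signals from 2.13 to 4.02 (median 2.93) in EupTs65Dn and from 2.02 to 3.92 (median 3.11) in Ts65Dn. The difference was 1.13-fold (log2 0.18, SE 0.15, 95% interval 0.917-fold to 1.39-fold). Hbb-y ran from 1.33 to 2.83 (median 1.78) in EupTs65Dn and from 1.41 to 3.45 (median 1.87) in Ts65Dn, and was at 1.07-fold (interval 0.868 to 1.32). Replicate 8 of Ts65Dn was its highest embryo, with the next at 3.3. Hbb-bh1 was at 0.956-fold (interval 0.814 to 1.12), over 1.1 to 2.66 in EupTs65Dn and 1.24 to 2.86 in Ts65Dn. Its highest Ts65Dn embryo was replicate 18, whose chromosome 16 genes read like the opposite genotype.

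Alas2 ran from 4.68 to 6.35 (median 5.71) in EupTs65Dn and from 4.84 to 6.14 (median 5.6) in Ts65Dn, a 0.95-fold difference (log2 -0.07, SE 0.11, interval 0.811 to 1.11). The interval excludes a change of Alas2 as large as the 1.43-fold rise of the triplicated gene Gabpa described below. Slc4a1 ran from 4.54 to 5.95 (median 5.26) and from 3.76 to 5.95 (median 5.44), at 0.989-fold (interval 0.809 to 1.21). Its lowest embryo was Ts65Dn replicate 14, with the next at 4.52. Klf1 ran from 3.16 to 3.98 and from 3.26 to 4.84, at 1.12-fold (interval 0.968 to 1.3), and Rhag was at 1.14-fold (interval 0.972 to 1.33). A p that missed the threshold does not show that the groups were alike, and the intervals give the changes that remain possible.

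**Figure D1:**
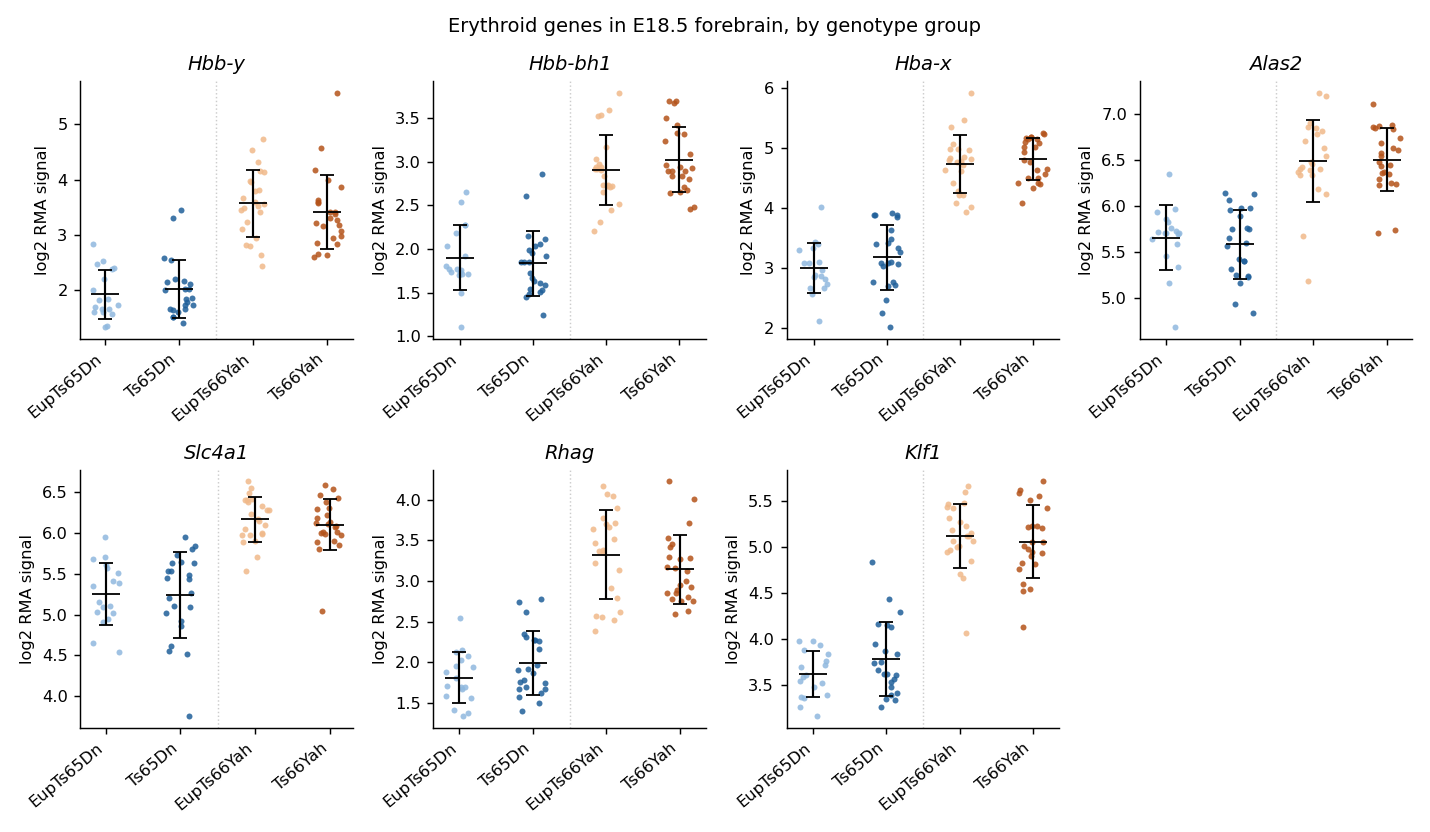
Log2 RMA signal (vertical axis) of the 7 measured genes in each embryo (points) by genotype group (horizontal axis), with the mean and the SD as bars and without EupTs66Yah replicate 16. Within each colony the euploid and trisomic points overlap for each gene, which also holds for Bach1 (not shown here), a gene that passed. Levels are not compared between the colonies, whose arrays differ in mean signal.

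The second comparison set Ts66Yah embryos against EupTs66Yah embryos. Again none of the 7 genes passed. The groups overlapped, as they also did for Bach1, which passed. In limma 0 of 7 passed, with adjusted p from 0.619 to 0.978, against 0.932% of probe sets in the same fit. At an unadjusted p under 0.05 the count was 0 of 7, against 12.1% of all probe sets, and the unpaired t-test called 0. With all 48 arrays limma called 0 of 7 as well.

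Alas2 ran from 5.19 to 7.23 (median 6.46) in EupTs66Yah and from 5.71 to 7.11 (median 6.51) in Ts66Yah, at 1.01-fold (log2 0.013, SE 0.11, interval 0.862 to 1.18). Slc4a1 ran from 5.53 to 6.63 (median 6.16) and from 5.04 to 6.59 (median 6.1), at 0.955-fold (interval 0.848 to 1.08), the narrowest interval of the 7. Klf1 ran from 4.07 to 5.67 and from 4.13 to 5.72, at 0.956-fold (interval 0.824 to 1.11). Its highest Ts66Yah embryo was replicate 13, whose chromosome 16 genes read like the opposite genotype. The intervals of these 3 genes together spanned 0.824-fold to 1.18-fold.

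Among the globins, Hba-x was at 1.06-fold (interval 0.899 to 1.25) and Hbb-bh1 at 1.09-fold (interval 0.93 to 1.27). Hbb-y was at 0.897-fold (log2 -0.16, SE 0.18, interval 0.698 to 1.15), with Ts66Yah replicate 20 highest at 5.57 and the next Ts66Yah embryo at 4.57. Rhag was at 0.881-fold (log2 -0.18, SE 0.14, interval 0.727 to 1.07). In replicate 16 of EupTs66Yah, Hbb-y read 6.76, Hbb-bh1 6.23, Hba-x 6.54, Rhag 5.39 and Klf1 5.94, each above every other embryo of the colony. Alas2 read 5.82 and Slc4a1 5.91 there, within the range of the others. The array's compressed spread moved with these readings, and its part in them was not tested. With that array included Hbb-y was at log2 -0.29 (adjusted p = 0.582), Rhag at -0.27 (adjusted p = 0.524) and Hbb-bh1 at -0.02 (adjusted p = 0.956) in limma.

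The genotype effects of the colonies were then compared in 1 fit. In limma 0 of 7 genes passed (adjusted p from 0.695 to 0.97), against 0.149% of probe sets. At an unadjusted p under 0.05 there was 1 of 7, against 7.14% of all probe sets. It was Rhag, with a log2 difference of effects (Ts65Dn minus Ts66Yah) of 0.37 (SE 0.18, adjusted p = 0.695). Its signal lay within the olfactory receptor range in both colonies.

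**Figure D2:**
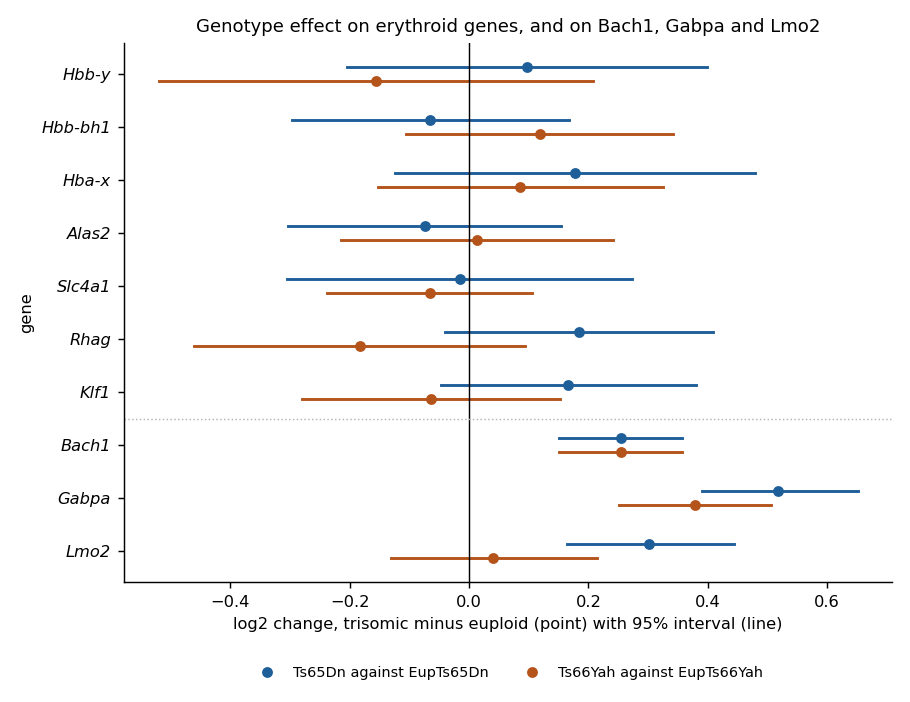
Log2 change, trisomic minus euploid (horizontal axis), of the 7 genes and of Bach1, Gabpa and Lmo2 (vertical axis), as a point with its 95% interval in each colony. The intervals of all 7 genes include 0 in both colonies, while those of Bach1 and Gabpa lie above 0 in both.

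Litter was tested next, since the embryos of a litter share a dam. None of the 7 genes differed between litters after adjustment. In the Ts65Dn colony 0 of 7 passed the moderated F test of limma with genotype in the model (adjusted p from 0.322 to 0.978), against 0.378% of probe sets. In the Ts66Yah colony 0 of 7 passed (adjusted p from 0.383 to 0.965), against 0.0901%. At an unadjusted p under 0.05 there was 1 of 7 in each colony, against 10.7% and 11.5% of all probe sets, and the genes were not the same.

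In the Ts65Dn colony that gene was Alas2 (F = 3.34, unadjusted p = 0.0137, adjusted p = 0.322 in limma). Its litter mean was lowest in TS113, at 5.28 ± 0.416 (SD over 7 embryos), and highest in TS42, at 5.91 ± 0.196 (7 embryos). The other litters had means of 5.53 to 5.73, and the ranges of TS113 (4.68 to 5.72) and TS42 (5.64 to 6.14) met. In the Ts66Yah colony it was Klf1 (F = 2.75, unadjusted p = 0.0305, adjusted p = 0.383). Klf1 was lowest in WT18, at 4.84 ± 0.457 (10 embryos), and highest in WT11, at 5.47 ± 0.327 (4 embryos).

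The litter means of the other genes are given as descriptions. Slc4a1 litter means spanned 0.37 in the Ts65Dn colony and 0.32 in the Ts66Yah colony on the log2 scale, against median SDs within a litter of 0.444 and 0.268. Hba-x spanned 0.55 and 0.36, with SDs of 0.442 and 0.391. Hbb-y was highest in TS11 (2.44) and lowest in TS137 (1.77) in the Ts65Dn colony, a span of 0.67 with a median SD within a litter of 0.38, beside a span of 0.63 for Alas2. TS42 was highest for Alas2, Slc4a1 (5.47) and Klf1 (3.81), and the remaining genes were highest in other litters of that colony. WT11, with 4 embryos, was highest for Alas2 (6.74), Slc4a1 (6.27), Klf1 and Hba-x (4.94). It was lowest for Hbb-y (3.3), and Hbb-bh1 (3.18) and Rhag (3.42) were highest in WT18. These are descriptions without a test. Litter and the handling of a litter cannot be told apart.

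Within litters the trisomic embryos were not steadily on one side. Hba-x had the higher trisomic mean in 5 of 6 litters of each colony, and Rhag in 5 of 6 Ts65Dn litters but 2 of 6 Ts66Yah litters. Alas2 was higher in 2 of 6 and 3 of 6, and Slc4a1 in 2 of 6 in each. Hbb-y was higher in 3 of 6 and 1 of 6, Hbb-bh1 in 3 of 6 and 5 of 6, and Klf1 in 4 of 6 and 2 of 6. With the litter as a block limma called 0 of 7 in both colonies.

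**Figure D3:**
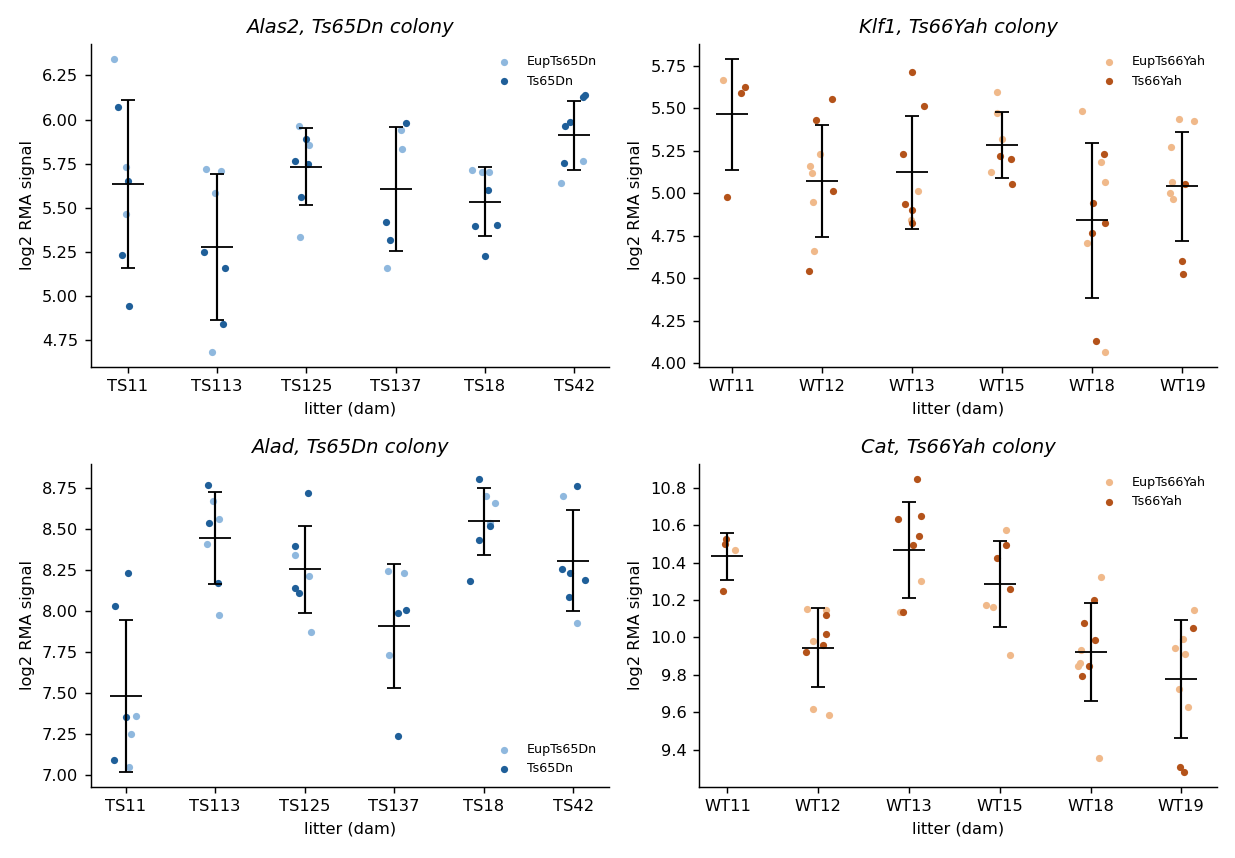
Log2 RMA signal (vertical axis) by litter (horizontal axis) of Alas2 and Alad in the Ts65Dn colony and of Klf1 and Cat in the Ts66Yah colony, with embryos as points coloured by group and the litter mean and SD as bars. Alas2 lies lowest in TS113 and Klf1 lowest in WT18, while Alad is lowest in TS11 and Cat highest in WT13. The Alas2 ranges of TS113 and TS42 barely meet, and the Klf1 ranges of WT18 and WT11 overlap.

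Relations between pairs of the 7 genes across embryos were weak. After removing genotype means, the 21 pairs had a median Pearson r of 0.157 in the Ts65Dn colony (-0.281 to 0.364, 17 pairs above 0) and of 0.013 in the Ts66Yah colony (-0.292 to 0.38, 11 pairs above 0). Of the 42 relations 0 passed a permutation test with 100000 resamples after Benjamini-Hochberg adjustment at 10%, and 5 had an unadjusted p under 0.05. Littermates share a dam, so embryos are not fully independent points.

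Alas2 and Slc4a1, the pair with signal furthest above the olfactory receptors, had r = 0.364 in the Ts65Dn colony (n = 41, Spearman rho 0.435, permutation p = 0.0192 and 0.00476, adjusted p = 0.278 and 0.2). Without the 2 embryos farthest from the median of Alas2 r was 0.452, and within litters 0.34. In the Ts66Yah colony r was 0.343 (n = 47, rho 0.0992, permutation p = 0.0199 and 0.506, adjusted p = 0.278 and 0.741), 0.288 without the 2 embryos farthest from the median of Alas2, and 0.341 within litters. EupTs66Yah replicate 14 and Ts66Yah replicate 5 were singled out after their values were seen because both genes were low in them, a choice that lowers r by construction. Without these 2 embryos r was 0.0198 (n = 45). Alas2 and Klf1 had r = 0.38 in the Ts66Yah colony (n = 47, rho 0.272, permutation p = 0.00851 and 0.0643, adjusted p = 0.278 and 0.499), 0.218 without the 2 farthest embryos and 0.277 within litters. In the Ts65Dn colony r for that pair was 0.189 (n = 41, rho 0.214, permutation p = 0.237 and 0.181, adjusted p = 0.465 and 0.499), 0.121 without the 2 farthest and 0.131 within litters.

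**Figure D4:**
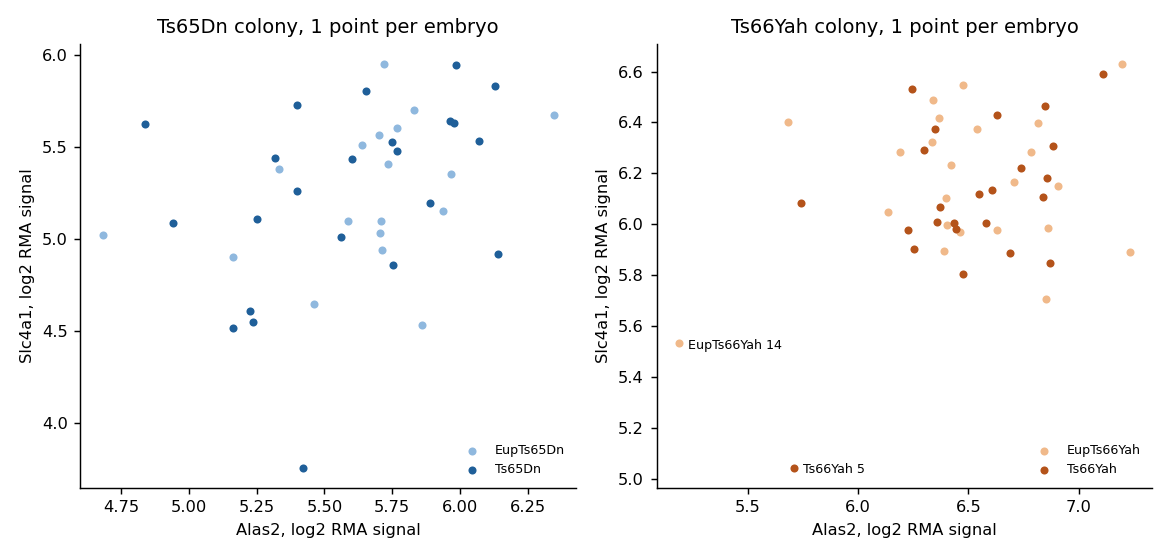
Log2 RMA signal of Slc4a1 (vertical axis) against Alas2 (horizontal axis), 1 point per embryo, coloured by group, in each colony. In the Ts66Yah colony EupTs66Yah replicate 14 and Ts66Yah replicate 5 lie low for both genes. After removing genotype means, which the plotted signals still hold, r is 0.0198 over the other 45 embryos. The 2 embryos were picked after their low values were seen, which lowers r by construction.

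A few embryos stood at the edge of their group for more than 1 of the 7 genes. EupTs66Yah replicate 14, of litter WT18, had the lowest Alas2 (5.19), Slc4a1 (5.53) and Klf1 (4.07) of its group. Its Hbb-y (4.14) and Rhag (4.04) were above the group medians of 3.56 and 3.38. Its array standard deviation of 2.23 was the lowest of its group after replicate 16, and the part of that in the result was not tested. The Y-linked genes of this embryo did not match its recorded sex. Ts66Yah replicate 5, of litter WT12, had the lowest Alas2 (5.71) and Slc4a1 (5.04) of its group, while its Klf1 (5.56) was not low and its array standard deviation was 2.33. In the Ts65Dn colony EupTs65Dn replicate 1, of litter TS11, had the highest Hbb-y (2.83), Hbb-bh1 (2.66), Alas2 (6.35) and Rhag (2.55) of its group, with a lower quartile of its array of 3.05 against 2.95 to 3.14 in the group.

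The genes most like the 7 were named by Pearson r with the mean of their standardised signals after removing genotype means, taking the smaller r of the colonies (41 and 47 embryos). Likeness was weak: of 19565 probe sets ranked, the highest were Cryaa (r = 0.43 and 0.42), a lens crystallin gene, A530016L24Rik (0.406 and 0.456) and Oxt (0.4 and 0.387), the oxytocin gene. Ankub1, E330034G19Rik, Cldn8, Foxn3, H2ab1, Sec31b and Col1a1, a collagen gene, followed with smaller values of 0.364 to 0.377. With litter means removed as well, 4 of these 10 stayed among the top 10. No gene of the wider erythroid lists was among these 10. The r of each gene with the mean of the other 6 was above 0 in both colonies for 6 of the 7, from 0.046 to 0.377, and was -0.216 for Rhag in the Ts66Yah colony. These values are descriptions from arrays that share litters and normalization.

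Wider erythroid lists, 77 genes in all, gave 1 call for Ts65Dn (1.3%) and 0 for Ts66Yah in limma, against 0.491% and 0.932% of all probe sets. At an unadjusted p under 0.05 there were 5 and 9 of 77, against 5.79% and 12.1%. The lists were of other globins, red cell membrane and surface genes, haem synthesis and iron, haem and globin breakdown, erythroid transcription and signalling, globin switching, and other red cell enzymes. Signals within the lists differed widely. Prdx2 lay above 99.6% of probe sets in both colonies, Add2 above 96.4% and 96.1%, and Bcl11a above 97.7% and 97.3%, while Car1 lay above 16.6% and 14.3%. Which cells gave these signals was not tested, so the lists are not a measure of red cells alone. Red cell membrane genes had a median log2 change of -0.04 over 17 genes in Ts65Dn and 0.05 in Ts66Yah, and haem synthesis genes of 0.01 and 0.08 over 16 genes. In Ts66Yah 13 of the 16 haem synthesis means were higher and 5 had an unadjusted p under 0.05, with 0 passing. The 3 other globins had medians of 0.03 and 0.26. In Ts66Yah 3 of 3 means were higher and 2 had an unadjusted p under 0.05, with 0 passing. In Ts65Dn 2 of 3 were higher, with 0 at an unadjusted p under 0.05. Median changes were 0.01 and 0.09 over 9 haem and globin breakdown genes, 0.03 and 0.03 over 14 erythroid transcription and signalling genes, -0.01 and -0.01 over 8 globin switching genes and -0.02 and -0.01 over 10 other enzymes. The medians over all probe sets were -0.0021 and 0.0044. In the difference of effects 0 of 77 passed limma, against 0.149% of all probe sets. At an unadjusted p under 0.05 there were 7 of 77, against 7.14%.

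The other measured globins did not pass. The adult globin genes Hba-a1, Hba-a2, Hbb-bs, Hbb-b1 and Hbb-b2 were not analysed here, nor was Hbb-bt, so these results do not cover them. Hbq1b, a theta-like globin gene, had a mean log2 signal of 4.53 ± 0.566 (SD, n = 23) in euploid embryos of the Ts66Yah colony and 5.06 ± 0.6 (n = 24) in the trisomic ones, 1.44-fold apart (interval 1.14 to 1.81, adjusted p = 0.153 in limma). Its near copy Hbq1a was at 1.2-fold (interval 1.03 to 1.39, adjusted p = 0.309), and probes for such near copies can bind both. In Ts65Dn they were at 1.16-fold (interval 0.872 to 1.55) and 1.02-fold (interval 0.852 to 1.22). Hbb-bh2, a further beta-like gene of the Hbb cluster, was at 1.14-fold in Ts66Yah (interval 0.978 to 1.34) and 0.934-fold in Ts65Dn (interval 0.758 to 1.15). The genes with the smallest p in the remaining lists also stayed short of the threshold, among them Fech, the last enzyme of haem synthesis, at 1.14-fold in Ts66Yah (adjusted p = 0.204), Ppox at 0.905-fold in Ts65Dn (adjusted p = 0.856), Trim58 at 1.2-fold in Ts65Dn (adjusted p = 0.851), Epb42 at 0.847-fold in Ts66Yah (adjusted p = 0.442) and Cd163, a scavenger receptor of haemoglobin, at 0.772-fold in Ts65Dn (adjusted p = 0.624). Kit, the stem cell factor receptor of early red cell precursors, was at 1.11-fold in Ts66Yah (interval 1.03 to 1.2, adjusted p = 0.235) and 0.922-fold in Ts65Dn (adjusted p = 0.865). Of the globin switching genes, Nr2c1, a nuclear receptor that binds globin promoters, was at 1.15-fold in Ts66Yah (adjusted p = 0.251) and Lin28b, an RNA-binding protein of the fetal programme, at 0.875-fold in Ts65Dn (adjusted p = 0.901). Xpo7, a nuclear exporter, was at 0.949-fold in Ts65Dn (adjusted p = 0.926).

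The call in Ts65Dn was Lmo2, a bridging protein of the erythroid complex with Gata1 and Tal1 that endothelial cells also use. Lmo2 ran from 4.76 to 5.66 (median 5.24) in EupTs65Dn and from 5.14 to 5.99 (median 5.53) in Ts65Dn. It rose 1.23-fold (log2 0.30, SE 0.071, adjusted p = 0.0279 in limma). It was at 1.03-fold in Ts66Yah (interval 0.913 to 1.16, adjusted p = 0.887), and the difference of effects did not pass (log2 0.26, SE 0.11, adjusted p = 0.615). Its call ended without litter TS18 (log2 0.27, adjusted p = 0.309), without TS137 (0.27, adjusted p = 0.236) and without the arrays whose Y-linked genes did not match the recorded sex (0.20, adjusted p = 0.53). Of the partners of Lmo2, Tal1 was at 1.28-fold in Ts65Dn (interval 1.1 to 1.49, adjusted p = 0.25 in limma) and 1.11-fold in Ts66Yah (interval 0.951 to 1.31). Gata1 was at 1.03-fold (interval 0.862 to 1.24) and 0.947-fold (interval 0.831 to 1.08), and neither gene passed. Of 10 endothelial markers 0 passed in limma in either trisomic group. In Ts65Dn 5 means were higher (median log2 change 0.0023, 0 at an unadjusted p under 0.05), and in Ts66Yah 8 were higher (0.12, 3 at an unadjusted p under 0.05). The shares of all probe sets at that unadjusted p were 5.79% and 12.1%.

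Of 5 blood-related transcription factor genes on the triplicated chromosome 16 part, 2 rose in Ts65Dn and 4 in Ts66Yah. Bach1, a haem-sensing repressor of globin and haem oxygenase genes, ran from 7.76 to 8.32 (median 8.13) in EupTs65Dn and from 8.08 to 8.54 (median 8.36) in Ts65Dn. It ran from 8.5 to 9.16 (median 8.83) in EupTs66Yah and from 8.71 to 9.29 (median 9.15) in Ts66Yah. It rose 1.19-fold in both (log2 0.26, SE 0.052, adjusted p = 0.00386, and log2 0.25, SE 0.052, adjusted p = 0.00534, in limma). Gabpa, an ETS factor, rose 1.43-fold and 1.3-fold (adjusted p = 3.56e-07 and 0.000231). Ets2 and Erg, also ETS factors, rose 1.44-fold and 1.36-fold in Ts66Yah (adjusted p = 0.000321 and 0.0125, and Erg at 0.181 without WT18) and were at 1.26-fold and 1.29-fold in Ts65Dn (adjusted p = 0.24 and 0.288). Runx1, a regulator of blood stem cell formation, was at 1.31-fold in Ts66Yah (interval 1.07 to 1.6, adjusted p = 0.236) and 1.09-fold in Ts65Dn (interval 0.853 to 1.41, adjusted p = 0.981). With all 48 arrays Bach1 (log2 0.38, adjusted p = 0.351) and Gabpa (0.58, adjusted p = 0.339) did not pass in Ts66Yah. Hmox1, a target of Bach1, was at 1.07-fold in Ts65Dn (interval 0.964 to 1.19) and 1.13-fold in Ts66Yah (interval 0.977 to 1.3), neither passing.

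Between litters, 1 of 77 genes of the wider erythroid lists (1.3%) passed in each colony, against 0.378% of all probe sets in the Ts65Dn colony and 0.0901% in the Ts66Yah colony. At an unadjusted p under 0.05 there were 6 and 7 of 77, against 10.7% and 11.5%. Alad, which encodes the second enzyme of haem synthesis and is used by all cells, differed in the Ts65Dn colony (F = 10.4, adjusted p = 0.00305 in limma). Its litter means ran from 7.48 ± 0.463 (SD over 7 embryos) in TS11 to 8.55 ± 0.205 (7 embryos) in TS18, a span of 1.07 on the log2 scale. Without TS11 it did not pass (F = 4.46, adjusted p = 0.272). Cat, the catalase gene, differed in the Ts66Yah colony (F = 8.98, adjusted p = 0.0239), from 9.78 ± 0.316 (9 embryos) in WT19 to 10.5 ± 0.255 (8 embryos) in WT13. Cat did not pass with all arrays (F = 2.08, adjusted p = 0.983) or without WT13 (F = 6.89, adjusted p = 0.232), WT18 (F = 10, adjusted p = 0.119) or WT19 (F = 8.85, adjusted p = 0.128). The same held without the arrays that read like the opposite genotype (F = 7.38, adjusted p = 0.116). The lowest litter mean of Alas2 was in TS113, where Alad was at 8.44 ± 0.281 (7 embryos).

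Markers of other cells of the blood gave no calls. Of 7 platelet and megakaryocyte genes 0 passed limma in any of the 5 comparisons, with adjusted p of 0.238 or more, and of 10 neutrophil and granulocyte genes 0 passed, with adjusted p of 0.451 or more. None of the 10 neutrophil genes and none of 6 liver genes lay at or above the median signal in either colony. Of the liver genes 0 passed in the genotype comparisons, with adjusted p of 0.639 or more. Meningeal and fibroblast genes had 7 of 8 means higher in Ts65Dn (median log2 change 0.11, 2 at an unadjusted p under 0.05) and 8 of 8 in Ts66Yah (0.16, 4 at an unadjusted p under 0.05). The shares of all probe sets at an unadjusted p under 0.05 were 5.79% and 12.1%. None of the meningeal and fibroblast genes passed in limma, and Aldh1a2 in Ts66Yah was nearest (adjusted p = 0.122). Of 6 choroid plexus genes 2 rose in each trisomic group, Kcne2 and Clic6, and both are on the triplicated chromosome 16 part.

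The fetal liver makes red cells at this age, so the embryos with high liver genes were compared on the 7 genes. Ts66Yah replicate 19 had Alb at 9.63, Afp at 7.3 and Ahsg at 7.76, against medians of 4.53, 4.71 and 4.82 over the other 45 embryos. Its Alas2 (6.45), Slc4a1 (5.98) and Klf1 (4.82) did not stand out, beside medians of 6.48, 6.13 and 5.12. Each of the 7 genes lay within the range of the other 45 embryos in both of these embryos. Without the pair, an alternative chosen after the values were seen, limma again called 0 of 7 (Alas2 log2 -0.00059, Slc4a1 -0.07, Rhag -0.18).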

How the data were processed

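The deposited values are log2 signals of 22206 probe sets on 89 arrays, made by the authors with RMA, per the submitters' processing notes, with its version not given in the sources used. The series text counts 25 Ts66Yah arrays, while 24 carry that label. Probe sets were named from the platform annotation, and 19572 had 1 gene symbol while 2634 had none or several. RNA had passed an integrity filter, per the labels' protocols.

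Each trisomic group was compared with the euploid group of its colony in limma 3.58.1 (R 4.3.3; lmFit and eBayes over all probe sets, Benjamini-Hochberg adjustment, threshold 10%, which the series text states). The litter was tested with a moderated F test with genotype as covariate, and the difference of effects in a fit of all 4 groups. EupTs66Yah replicate 16, with a spread under the limit set for its colony, was left out, which leaves 88 arrays. Relations used permutation tests (numpy 2.4.6, 100000 resamples, two-sided), with ranks for Spearman rho from scipy 1.17.1. Array number limits the precision, and no depth applies. Litter, dam and any handling by litter cannot be told apart.

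The members and gene lists were chosen with earlier results of these data known. Named were every measured member, all other measured globins, up to 4 genes per list that passed with the smallest p (or, where none passed, the gene of smallest p; not every list is spelled out), Runx1 and Bach1, and the 10 genes most like the members. Emx1, single liver genes, and the values of Tal1 and Gata1 were added after their values were seen. The scripts were tested on simulated data. Alternatives were sex as a covariate, a litter block, the series' unpaired test, other thresholds, filters and normalizations, array weights and arrays or litters left out.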

Additional observations from a re-analysis of the deposited data

Results flagged for a closer look

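Within litters of 4 to 10 embryos, 9 of 84 gene and litter groups held an embryo whose gap to its neighbour was large against the range of the litter (Dixon's criterion at 95%), where chance flags about 1 in 20. Among the globins, Hbb-y read 3.45 in Ts65Dn replicate 8 of TS125, with the next embryo at 2.01. Hbb-bh1 read 2.54 in EupTs65Dn replicate 9 of TS125 (next 1.85) and 2.86 in Ts65Dn replicate 18 of TS18 (next 1.92). In Ts65Dn replicate 18 the chromosome 16 genes read like the opposite genotype.

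Alas2 read 5.19 in EupTs66Yah replicate 14 of WT18, with the next embryo at 6.14, and Slc4a1 in the same embryo read 5.53 (next 5.97). Slc4a1 read 5.04 in Ts66Yah replicate 5 of WT12 (next 5.85). Klf1 read 4.84 in Ts65Dn replicate 3 of TS11 (next 3.84), 4.44 in Ts65Dn replicate 14 of TS137 (next 3.61) and 4.98 in Ts66Yah replicate 3 of WT11 (next 5.59). In EupTs66Yah replicate 14 and Ts66Yah replicate 3 the Y-linked genes did not match the recorded sex.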

How the results depend on the processing

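None of the 7 genes passed under any alternative: 16 for Ts65Dn, 18 for Ts66Yah, 10 for the difference of effects, and 15 and 17 for litter in the Ts65Dn and Ts66Yah colonies. The lowest adjusted p of any of them in limma was 0.745, 0.459, 0.616, 0.154 and 0.214 in that order. The fourth came from a filter at the median signal, under which only Alas2 was tested. That filter also counts for the genotype comparisons and the difference of effects, where the other genes had 15, 17 and 9 alternatives each. The totals also include a stricter threshold, which could call no gene that missed the main one. Directions were not fixed for genes near 0: Alas2 in Ts66Yah kept its sign in 12 of 18 alternatives (log2 -0.107 to 0.0835) and Slc4a1 in Ts65Dn in 12 of 15, while Rhag kept its sign in 15 of 15 and 17 of 17. The alternatives share most of their arrays, so a kept sign does not establish a direction. Rhag had opposite signs in the colonies (log2 0.184 in Ts65Dn and -0.183 in Ts66Yah), and neither passed. No paired analysis was possible because replicate numbers here follow accession order and only name embryos; the litter was used as a block instead.

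The count of probe sets called over the whole array moved more. For Ts66Yah it was 207, and 38 with all arrays, 103 at a threshold of 0.05, 133 after quantile normalization, 326 without the arrays that read like the opposite genotype, and 71 to 88 without WT12, WT15 or WT18. For the difference of effects it was 33, and 2 with all arrays. For litter in the Ts65Dn colony it was 84, and ranged from 35 without the arrays whose Y-linked genes did not match the recorded sex to 348 with the filter at the median signal. For litter in the Ts66Yah colony it was 20, and ranged from 0 with all arrays or without WT13 to 602 with array weights. The cause was not tested. The relation of Alas2 and Slc4a1 in the Ts66Yah colony went from r = 0.343 to 0.288 without the 2 embryos farthest from the median of Alas2, and to 0.0198 without 2 embryos picked after their low values for both genes were seen. Hbb-y, Hbb-bh1 and Rhag lay within the signal range of olfactory receptor genes, which limits what the arrays can show for them.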
